A study of Homo sapiens with 6 samples.

Results

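The metallothioneins and the genes that carry zinc and copper across membranes were examined in tumors grown from BxPC-3, a human pancreatic cancer cell line. Members were taken by gene name alone: every probe of a metallothionein 1 gene, of a SLC39A or a SLC30A gene, and of MT2A, MTF1, ATP7A, ATP7B, SLC31A1, SLC31A2, ATOX1 or CCS. This gave 53 of the 50599 probes on the array, for 41 of 36337 gene names. BxPC-3 cells in Matrigel were placed under the skin of female BALB/c (nu/nu) mice aged 8 to 10 weeks. Deferasirox (DFX), an oral iron chelator, was given to the DFX group by mouth at 200 mg/kg a dose, on alternate days (3 doses in a week) through a 21-day course. The control group was given the saline vehicle, and 3 removed tumors of each group were measured on Agilent 1-colour arrays, 1 array a tumor. Each tumor was a graft of 1 cell line in a host that lacks mature T cells, and the RNA of the mouse stroma was extracted with it, so human probes may also have read mouse transcripts. In such bulk tumors, fewer cells of a type and less RNA per cell cannot be told apart.

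Metallothioneins are small proteins rich in cysteine that bind zinc and copper. Their genes lie in a cluster on chromosome 16 and are switched on by MTF1, a zinc-sensing transcription factor that binds metal response elements in their promoters. SLC39A proteins (ZIP) bring zinc into the cytosol, and SLC30A proteins (ZnT) move it out of the cell or into vesicles. Copper enters cells through SLC31A1 and is passed by the chaperones ATOX1 and CCS to the pumps ATP7A and ATP7B and to superoxide dismutase. Iron chelators can also bind other metals, and SLC39A4 is known for its high level in pancreatic cancer.

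The promoters of 3 metallothioneins are shown first, since they carry the sequence through which these genes answer to zinc. The core of the metal response element was searched on both strands as TGCGCNC or TGCACNC (N, any base) in the 250 bases before the gene start, from RefSeq on GRCh38.p14. Capitals mark the cores, which did not overlap in these windows.
MT2A, chr16:56608334-56608583, plus strand: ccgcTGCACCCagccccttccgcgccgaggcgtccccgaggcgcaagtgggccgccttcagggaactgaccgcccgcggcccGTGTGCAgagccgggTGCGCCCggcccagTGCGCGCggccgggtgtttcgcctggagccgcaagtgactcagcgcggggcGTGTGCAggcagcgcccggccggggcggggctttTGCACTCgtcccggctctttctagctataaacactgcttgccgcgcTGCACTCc
MT1X, chr16:56682220-56682469, plus strand: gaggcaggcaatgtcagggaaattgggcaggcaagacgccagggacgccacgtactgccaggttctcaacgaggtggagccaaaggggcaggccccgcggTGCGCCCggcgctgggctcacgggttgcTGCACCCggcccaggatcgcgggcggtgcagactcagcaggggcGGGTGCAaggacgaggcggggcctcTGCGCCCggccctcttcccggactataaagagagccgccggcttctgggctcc
MT1H, chr16:56669564-56669813, plus strand: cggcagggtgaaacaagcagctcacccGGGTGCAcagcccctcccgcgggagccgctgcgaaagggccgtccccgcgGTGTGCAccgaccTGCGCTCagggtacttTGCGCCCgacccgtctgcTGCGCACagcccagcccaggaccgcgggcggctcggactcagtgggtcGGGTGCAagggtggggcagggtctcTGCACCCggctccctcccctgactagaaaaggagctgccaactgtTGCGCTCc
MT2A held 7 cores, MT1X 4 and MT1H 8. MT1B, the remaining metallothionein with an entry in the promoter table, held 3. Of all 35116 promoters of this length, 24.8% held at least 1 core and 1.58% held 3 or more. Among the other members, 14 of 38 promoter entries held a core, with 1 in that of SLC30A1 and none in those of MTF1, SLC39A5 and ATP7A. A match is a description of the letters, not a binding site.

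The probes of the family were also compared, because metallothionein genes are near-identical in their coding parts. The stretch that the MT1A probe shared with the brighter MT1H probe is printed with capitals at the bases that differ.
MT1A probe, bases 1 to 46: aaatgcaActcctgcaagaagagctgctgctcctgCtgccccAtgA
MT1H brighter probe, bases 15 to 60: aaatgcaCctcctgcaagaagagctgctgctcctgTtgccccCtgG
These 46 bases differed at 4 positions, and the brighter probes of MT1H and MT1X shared 35 bases with 2 mismatches. The MT1L probe shared 42 bases with the dimmer MT1E probe (4 mismatches) and 48 with the brighter one (7 mismatches). With the MT1B probe it shared 43 (5 mismatches), and the dimmer MT1E probe shared 59 with that of MT1B (10 mismatches). The values of these probes are therefore uncertain as values of 1 gene. MT1H also had a dimmer probe, toward the 3′ end of the gene. Its first 30 bases are set beside the like probes of MT1F and MT1X, with capitals where the latter differ from it.
MT1H dimmer probe: tgtcgggacagccctgctgtcagatgaaaa
MT1F probe: tgCcAggacaAccTtTctCCcagatgTaaa
MT1X dimmer probe: tgCcAggacagcTGtgctCtcagatgTaaa
Over all 60 bases the MT1F probe differed from it at 14 positions and the MT1X probe at 16. Cross-hybridization among the family and with mouse metallothioneins was not tested.

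Of the 53 probes, 49 (38 genes) gave a signal over background on all 6 arrays and were tested, and 45 of these were well above background on every array. The 4 probes that were not tested belonged to SLC30A8, SLC30A10, SLC39A12 and, as the dimmer of its pair, SLC39A14. Values are quantile-normalized log2 intensities, and differences are DFX minus control on that scale. Of the 49 probes 5 (10.2%) passed an unadjusted p under 0.05 in limma, against 8.41% of all 31807 probes tested, and passing the test, rising and falling refer to this unadjusted threshold. The probes were of SLC39A5, SLC39A8, MT1H, MT1G and ATP7A. Of these 4 were higher in DFX tumors (3.46% of all probes were called higher) and 1 was lower (4.95% of all probes were called lower). By gene, 5 of 38 (13.2%) had such a probe, against 10.6% of all gene names. The groups did not overlap for 11 member probes (22.4%), 6 higher and 5 lower in DFX tumors, against 15.5% of all probes. After Benjamini-Hochberg adjustment over all probes no member passed, the lowest adjusted p being 0.513, and 0% of all probes passed. The count of member probes was 8 without control replicate 1 and 3 without DFX replicate 1 or DFX replicate 2.

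**Figure D1:**
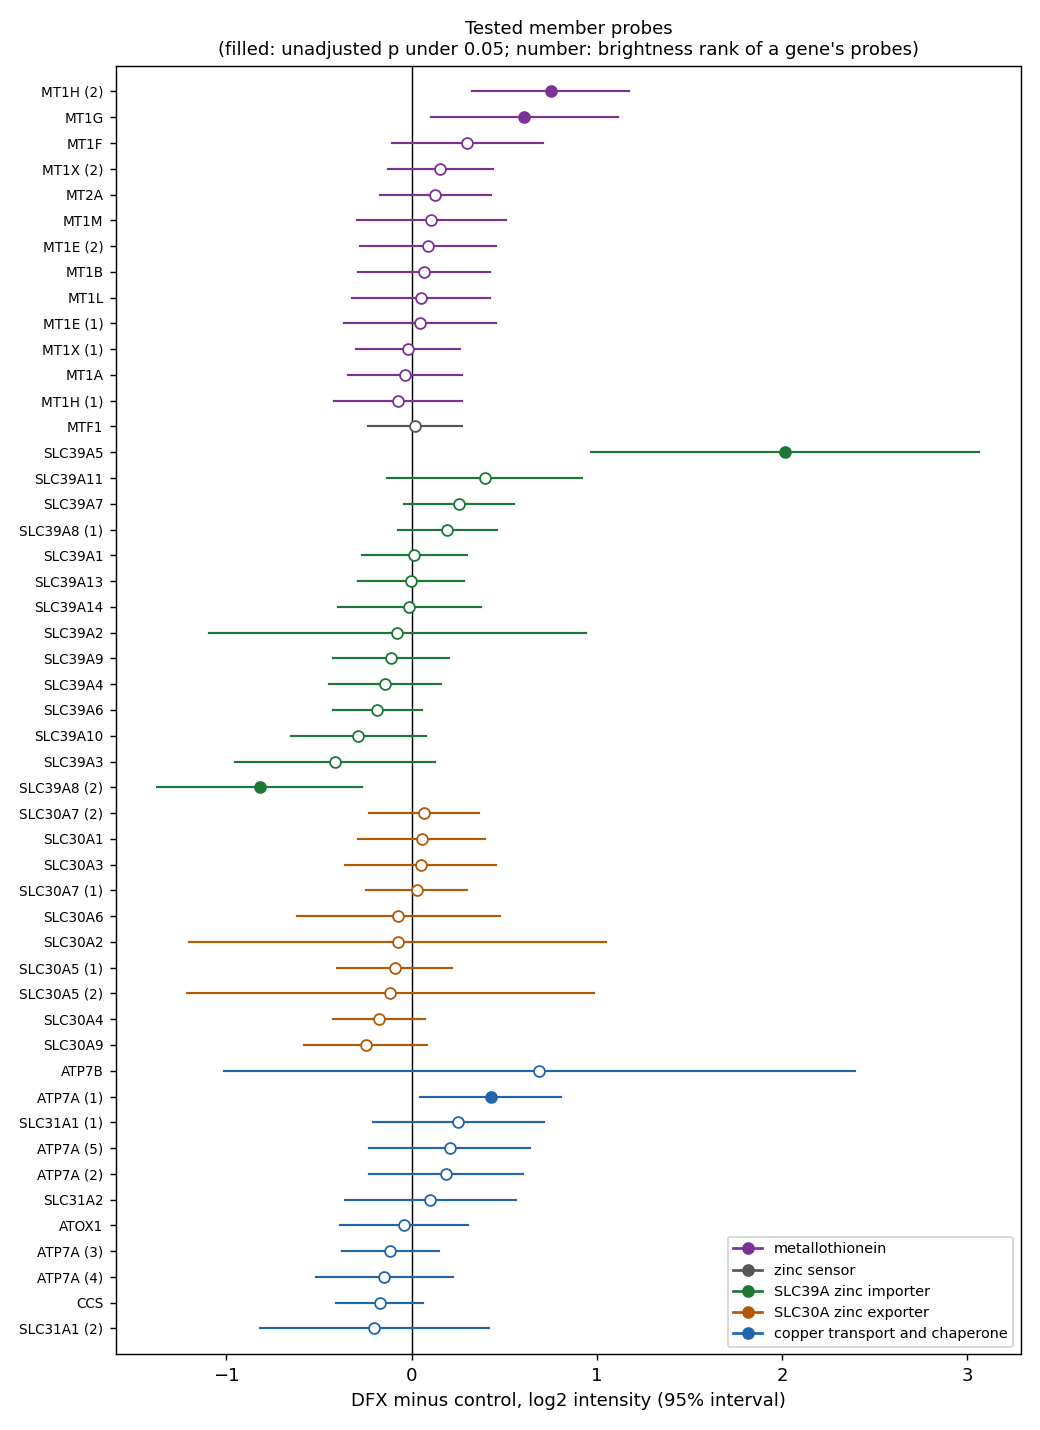
DFX minus control difference in log2 intensity for each of the 49 tested member probes, with its 95% interval from limma, coloured by family. Filled points passed an unadjusted p under 0.05, and most intervals cross 0, with SLC39A5 the farthest from it at 2.02.

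Arrays shared 1 slide, with the control tumors in row 1 and the DFX tumors in row 2, so that row and treatment cannot be told apart. All 8 markers of pancreatic ductal epithelium, the origin of the labelled cell line, were well above background on every array. For 3 of them (EPCAM, KRT18 and KRT8) a probe was higher in DFX tumors, 3 of the 12 probes tested for the list. The other KRT18 probe (0.15) and the other KRT8 probes (0.24 and −0.12) did not pass. Of all gene names, 10.6% had a probe that passed in either direction, which applies to this list and those below. The summed linear intensity of the 5 tested red blood cell genes was 6739 to 8023 in control tumors and 3122 to 3287 in DFX tumors. That of the 7 tested fibroblast genes was 13752.5 to 22716 and 12699 to 15715, with DCN lower and LUM higher in DFX tumors. None of the 4 tested leukocyte genes passed, with sums of 1898 to 2248 and 1991 to 2360, and 1 of 4 endothelial genes, PECAM1, was higher, with sums of 482.1 to 946.7 and 555.8 to 599.3. The lists held 7 red blood cell, 8 fibroblast, 6 leukocyte and 5 endothelial genes, and ALAS2, PDGFRB, CSF1R and TEK were among those not tested. KDR was tested but was well above background on 0 control and 0 DFX arrays. The part of host cells in the values of the members was not tested.

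Among the metallothioneins, MT1G and the dimmer probe of MT1H rose in DFX tumors, and the other 11 probes of the family did not pass the test. All 10 genes were measured, by the brightest probe 7 with a difference above 0 and 3 below it. Their median difference was 0.059, against −0.012 over all tested genes, and it was −0.034 with median scaling of the arrays and −0.0049 without DFX replicate 2. Median scaling also lowered the median of all tested probes, from −0.025 to −0.10.

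The dimmer MT1H probe (chr16:56704902-56704961, hg19, plus strand) read 7.97, 7.45 and 7.86 in control tumors and 8.68, 8.38 and 8.47 in DFX tumors. Every DFX tumor was above every control tumor. The means were 7.76 ± 0.28 and 8.51 ± 0.15 (SD, n = 3), a difference of 0.75 (SE 0.17) or 1.68-fold (95% interval 0.33 to 1.18, adjusted p = 0.513 in limma). It kept its sign and passed in all 15 alternatives that were run, between 0.59 and 0.85. These are not separate checks, since some change only the test or the set of probes tested and leave the difference as it was. The brighter MT1H probe (chr16:56704448-56704833), whose 60 bases cross a splice junction, read 14.39, 14.48 and 14.59 in control tumors and 14.40, 14.62 and 14.21 in DFX tumors. Here the groups overlapped, and the difference was −0.073 with a 95% interval of −0.42 to 0.27. The differences of the 2 MT1H probes were thus 0.82 apart. The brighter MT1H probe shares the stretch printed above with MT1A, and 35 bases (2 mismatches, not printed) with the brighter MT1X probe.

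MT1G (chr16:56700693-56700752, minus strand) read 11.07, 10.51 and 11.27 in control tumors and 11.60, 11.56 and 11.52 in DFX tumors. The DFX tumors lay close together and all above the controls, of which replicate 2 was lowest. The difference was 0.61 (SE 0.21) or 1.53-fold (95% interval 0.10 to 1.11, adjusted p = 0.557 in limma). It no longer passed with median scaling (0.49), nor without DFX replicate 1 (0.59), 2 (0.61) or 3 (0.63), although the difference stayed above 0. Without control replicate 2 it passed but was smaller, at 0.39.

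MT1F read 9.75, 9.54 and 9.87 in control tumors and 10.17, 10.15 and 9.73 in DFX tumors. DFX replicates 1 and 2 were above all controls while replicate 3 was among them, and the difference was 0.30 (adjusted p = 0.662 in limma). Without DFX replicate 3 it was 0.44 and passed at an unadjusted p under 0.05. The dimmer MT1X probe read 12.37, 12.28 and 12.37 against 12.37, 12.46 and 12.65. Its DFX tumors were above the controls by a narrow margin, and the difference of 0.16 did not pass (adjusted p = 0.730 in limma).

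MT2A, the most widely expressed metallothionein of human tissues, read 16.03, 16.21 and 16.24 in control tumors and 16.37, 16.37 and 16.14 in DFX tumors. The groups overlapped, the difference was 0.13 (95% interval −0.17 to 0.43), and it was −0.0082 with median scaling. MT1A differed by −0.037, the brighter MT1X probe by −0.019, MT1B by 0.068, MT1M by 0.11 and the MT1E probes, which share 30 bases, by 0.045 and 0.088. MT1L, a pseudogene of the family, differed by 0.050. None of these passed, with intervals reaching no further than −0.37 and 0.51. The 5 differences above 0 turned below it with median scaling, which also lowered the median of all tested probes to −0.10.

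From tumor to tumor, the metallothionein probes shared much of their order. DFX replicate 3 was the lowest DFX tumor for 11 of the 13 probes, where it was lowest for 38.5% of all tested probes. Control replicate 2 was the lowest control for 10 of 13, against 29.9% of all tested probes. As a median over the genes, control tumors deviated from the control mean by −0.037, −0.067 and 0.11, and DFX tumors by 0.20, 0.20 and −0.18. DFX replicate 3 was thus below every control. Without that tumor the median difference of the family was 0.20. Probes that share sequence are not independent, and this is a description with no test.

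**Figure D2:**
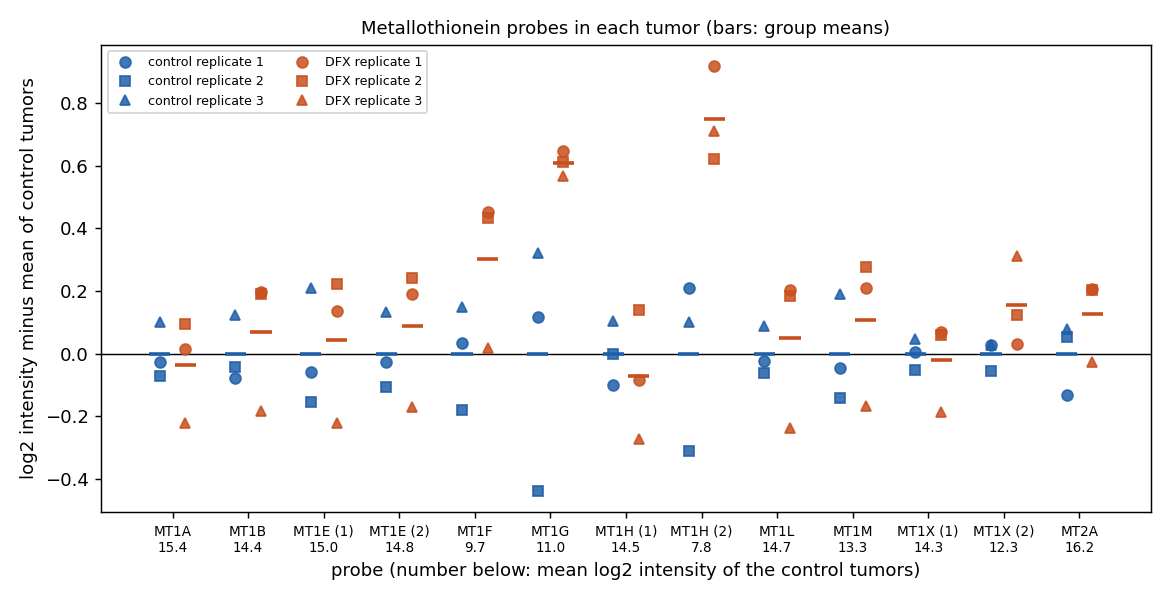
Log2 intensity of the 13 metallothionein probes in each of the 6 tumors, minus the mean of the control tumors, with bars at the group means and the mean control level under each name. DFX replicate 3 (orange triangles) lies lowest of the DFX tumors for 11 probes, while the groups are apart for MT1G, MT1H (2) and, narrowly, MT1X (2).

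MTF1, the zinc sensor, read 9.88, 9.88 and 9.98 in control tumors and 9.89, 9.86 and 10.04 in DFX tumors. Both groups covered the same range, and the difference was 0.017 (95% interval −0.24 to 0.27, adjusted p = 0.974 in limma), or −0.087 with median scaling.

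Of the 14 SLC39A zinc importer genes 13 were tested, with 5 differences above 0 and 8 below. Their median of −0.011 was close to that of all tested genes (−0.012), and it was 0.040 without control replicate 3 and 0.0026 without DFX replicate 2. SLC39A5 rose and a probe of SLC39A8 fell, and no other SLC39A gene passed.

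SLC39A5 encodes a zinc importer of the basolateral membrane of intestine and pancreas. Its probe (chr12:56631568-56631627, hg19, plus strand) read 6.05, 6.70 and 5.42 in control tumors and 8.60, 8.23 and 7.39 in DFX tumors. The lowest DFX tumor was above the highest control, although both groups were widely spread. The means were 6.05 ± 0.64 and 8.07 ± 0.62 (SD, n = 3), a 4.05-fold difference of 2.02 (SE 0.43, 95% interval 0.97 to 3.07). It passed at the unadjusted threshold and not after adjustment (adjusted p = 0.513 in limma). All 15 alternatives kept the direction and passed, between 1.42 and 2.38. The probe lies where SLC39A5 and ANKRD52, a gene on the opposite strand, meet, and 37 of its 60 bases are complementary to the ANKRD52 probe. The last 30 of these are shown, and the ANKRD52 transcript carries their complement, not the same bases.
SLC39A5 probe, bases 31 to 60: aataggattttaataaacagaacccatccc
The ANKRD52 probe differed by −0.034 (adjusted p = 0.948 in limma) between the groups, and the part of that transcript in the SLC39A5 signal was not tested.

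SLC39A8 (ZIP8), an importer of zinc, manganese and iron, had 2 tested probes. The probe of a second transcript variant (chr4:103172416-103172475, minus strand) read 5.20, 5.46 and 5.15 in control tumors and 4.56, 4.79 and 4.0 in DFX tumors. All 3 DFX tumors were below the controls, and the probe was well above background on 3 of 3 control arrays but on 0 of 3 DFX arrays. The measured means were 5.27 ± 0.17 and 4.45 ± 0.41 (SD, n = 3), a difference of −0.82 (95% interval −1.37 to −0.27, adjusted p = 0.514 in limma). Since the DFX signals were not well above background, this size is uncertain, and it ranged from −0.98 to −0.28 over the 14 alternatives, with −0.28 after normexp background correction. All 14 passed. The other probe (chr4:103182951-103183010) read 10.61, 10.53 and 10.48 against 10.78, 10.61 and 10.82. It leaned the other way by 0.19 with overlapping groups and did not pass (adjusted p = 0.668 in limma), so the probes of SLC39A8 were 1.01 apart in their differences.

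SLC39A4 (ZIP4), named for its bright probe, read 13.73, 13.64 and 13.87 in control tumors and 13.60, 13.75 and 13.47 in DFX tumors. The groups overlapped and the difference of −0.14 did not pass (adjusted p = 0.761 in limma). SLC39A3, with the lowest difference by a gene's brightest probe, read 6.20, 6.69 and 6.20 against 6.11, 6.16 and 5.58. Its DFX tumors were all below the controls, by little, and the difference of −0.41 did not pass (adjusted p = 0.654 in limma). It was −0.25 without control replicate 2, −0.23 without DFX replicate 3 and −0.19 with normexp background correction. SLC39A6 and SLC39A7 were also without overlap, at −0.19 and 0.26, and did not pass (adjusted p = 0.654 and 0.627 in limma).

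**Figure D3:**
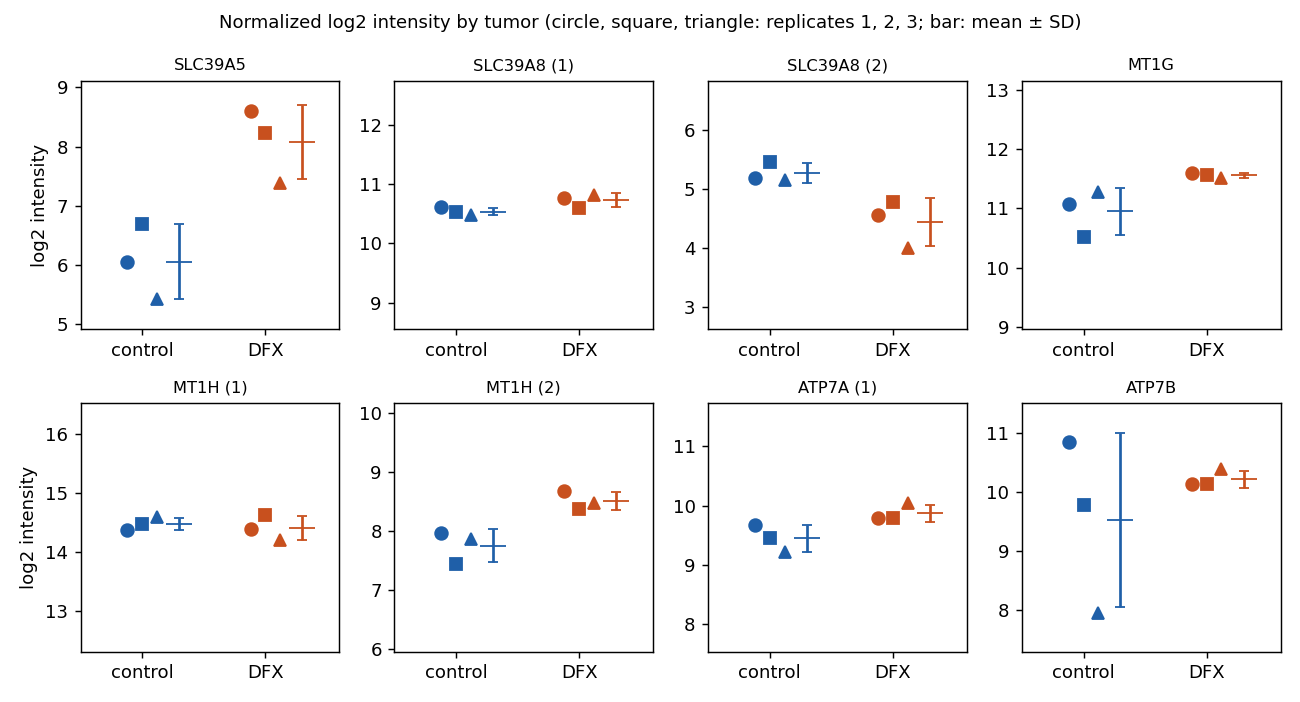
Log2 intensity in each tumor, with group mean ± SD (n = 3), for the probes that passed the test and for the other probes of SLC39A8 and MT1H and the probe of ATP7B. The panels span equal ranges, and the groups are apart for SLC39A5, SLC39A8 (2), MT1G, MT1H (2) and ATP7A (1), and overlap for the others.

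None of the 10 probes tested for the SLC30A zinc exporters passed. They stood for 8 of the 10 genes, 3 with a difference above 0 and 5 below. The median difference was −0.074, or 0.013 with 75th percentile scaling and 0.026 without control replicate 3. SLC30A1 (ZnT1), the exporter of the plasma membrane and a known target of MTF1, read 9.36 to 9.68 in control tumors and 9.40, 9.72 and 9.57 in DFX tumors. By brightest probe it was the highest difference of the family, 0.054 (95% interval −0.29 to 0.40), with overlapping groups, and was −0.068 with median scaling. SLC30A9, at the other end, read 8.85, 8.58 and 8.86 against 8.47, 8.67 and 8.40. DFX replicate 2 lay within the controls, and the difference was −0.25 (adjusted p = 0.661 in limma). SLC30A5, named for its bright probe, differed by −0.092 (adjusted p = 0.854 in limma), and SLC30A4 was without overlap at −0.18 (adjusted p = 0.671).

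All 6 copper genes were tested, on 11 probes, and 1 probe of ATP7A passed. By brightest probe 4 genes differed upward and 2 downward. Their median was 0.18, but −0.027 without control replicate 3. That tumor stood 0.28 below the control mean in the median of these genes, where the others stood 0.14 and 0.099 above it.

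ATP7A, the pump that loads copper into the Golgi and exports it, had 5 probes along the gene. The probe nearest to its 5′ end (chrX:77227198-77227257, hg19, plus strand) read 9.67, 9.45 and 9.22 in control tumors and 9.79, 9.79 and 10.04 in DFX tumors. Every DFX tumor was above the controls, and the difference was 0.43 (SE 0.16) or 1.34-fold (95% interval 0.045 to 0.81, adjusted p = 0.575 in limma). The probes 40.6, 75.1, 75.3 and 78.4 kb downstream differed by 0.21, 0.19, −0.15 and −0.12. None of these passed, and their groups overlapped. The call was lost in 7 of 15 alternatives, which were median scaling (0.33), the replicate number as a block (0.43) and leaving out control replicate 2 (0.43) or 3 (0.31) or DFX replicate 1 (0.47), 2 (0.47) or 3 (0.34).

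**Figure D4:**
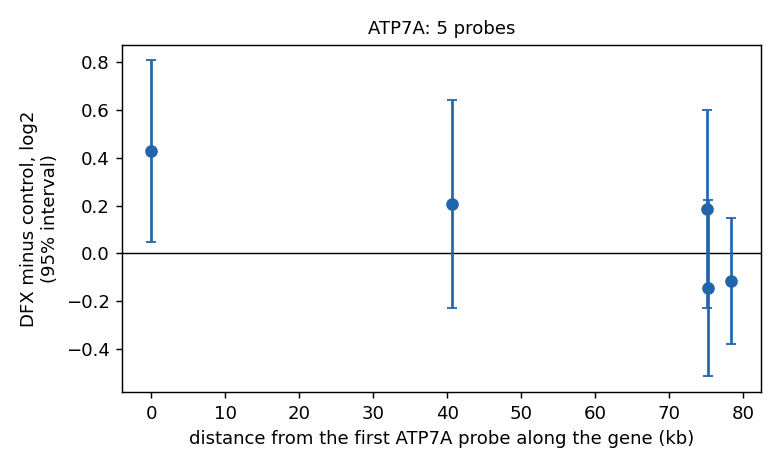
DFX minus control difference in log2 intensity, with its 95% interval, for the 5 ATP7A probes against their distance in kb from the first. The first probe is at 0.43 with an interval above 0, and those at 75 kb and beyond lie on both sides of 0.

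ATP7B, the related pump of the liver and other secretory tissue, varied most among the control tumors. It read 10.84, 9.78 and 7.95 in control tumors and 10.13, 10.13 and 10.38 in DFX tumors. The DFX tumors lay close together within the range of the controls, of which replicate 3 was far below the others. The difference was 0.69 (SE 0.70, adjusted p = 0.796 in limma), and it was −0.094 without control replicate 3 and 1.35 without control replicate 1, neither of which passed. In control replicate 3 the median deviation from the control mean was −0.51 over the tested fibroblast genes (0.21 and 0.32 in the other controls) and −0.10 over the ductal genes (0.11 and 0.049). The fibroblast genes were split there. COL1A1, COL1A2, THY1 and LUM were lowest of the controls, DCN and FAP highest, and COL3A1 between. The ductal genes, by brightest probe, were split as well. In that tumor MUC1 (11.55 against 13.11 and 13.34), CEACAM6, EPCAM, KRT8 and KRT18 were lowest of the controls. KRT7 was highest, CDH1 between, and KRT19 read 18.44 both there and in control replicate 2. The part of either list in the ATP7B value was not tested.

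SLC31A1 (CTR1), the main copper importer, had probes that differed by 0.25 and −0.20, and SLC31A2 differed by 0.10. None of the 3 probes passed (adjusted p = 0.732, 0.836 and 0.894 in limma), and control replicate 3 was the lowest control for each. The chaperone ATOX1, which hands copper to the pumps, differed by −0.042 (95% interval −0.39 to 0.30). CCS, which hands copper to SOD1, read 10.26, 10.22 and 10.35 in control tumors and 10.08, 10.12 and 10.10 in DFX tumors. Its DFX tumors were all lower, and the difference of −0.17 (SE 0.096) did not pass (adjusted p = 0.665 in limma).

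A list of 24 other zinc and copper genes was read in the same way. Of 20 tested, 10 differed upward and 10 downward with a median of 0.00078, and 2 had a probe that passed. This share is near the 10.6% of all gene names with such a probe, and both genes are given as a description. CUTC, whose bacterial counterpart is known for copper tolerance, read 8.42, 8.33 and 8.35 in control tumors and 7.89, 8.06 and 7.91 in DFX tumors. Its groups were apart, with a difference of −0.42 (SE 0.10, adjusted p = 0.514 in limma), and it passed in all 15 alternatives. CP (ceruloplasmin), the copper-bearing ferroxidase of plasma, read 10.81, 11.07 and 10.16 against 11.27, 11.19 and 11.75 on the probe with the larger difference, with the DFX tumors above the controls. Its 2 probes rose by 0.72 and 0.70 (adjusted p = 0.580 in limma for both). Each call was lost in 7 of 15 alternatives, and the differences were both 0.46 without control replicate 3. MT3, a metallothionein outside the rule, differed by 0.074 (adjusted p = 0.886 in limma).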

How the data were processed

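Removed tumors, 3 of the control and 3 of the DFX group, were profiled on Agilent 1-colour arrays, and the titles given to the samples set their group and number. The members, the gene lists and the alternatives were chosen with earlier results of these data known. The authors deposited 1 scanner file per array, which holds per the file headers linear intensities, a background-subtracted processed intensity, a p-value of each spot against its background, and flags. The headers name Feature Extraction 10.7.1.1, while the submitters' processing notes name 9.5.1.1. The authors also deposited a table of normalized linear intensities, used here as an alternative.

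The processed intensity of the 58717 non-control spots was log2-transformed and quantile-normalized, after the study's methods. Spots flagged as outliers (1398 values, none of a member) were left out, and spots of a probe were averaged. Probes whose deposited p-value, as a median over spots, was under 0.05 on all 6 arrays were tested (31807 of 50599) by a two-sided moderated test in R 4.3.3 (limma 3.58.1, functions lmFit and eBayes), and p-values were adjusted over all of them by Benjamini-Hochberg. Fitting was tested on simulated data. A probe was called at an unadjusted p under 0.05, the study's threshold. A gene was represented by its brightest tested probe. Gene names and probe positions (hg19) come from the array annotation, and promoters are from RefSeq on GRCh38.p14. Between 50.4% and 56.6% of probes were well above background per array, no spot was saturated, and the number of arrays limits the precision.

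Named were all metallothioneins, MTF1 and the copper genes, each SLC39A or SLC30A gene with a called probe, the brightest gene and the highest and lowest difference of both families, and the called genes of the other list. SLC39A6, SLC39A7, SLC30A4, MT3 and ANKRD52 were named after their values were seen. Replicate numbers did not pair the tumors (correlations of deviations 0.027, 0.027 and 0.016). The sources do not state that each tumor came from its own mouse, so p-values measure the spread between these tumors. The alternatives were 75th percentile and median scaling, normexp background correction (offset 50), no detection filter, probes well above background on all arrays, outlier spots kept, the deposited table, the replicate number as a block, the Kruskal-Wallis H test of the study's methods, the mean of a gene's probes, and leaving out each tumor.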

Additional observations from a re-analysis of the deposited data

How the results depend on the processing

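The SLC39A5, MT1H and CUTC calls held under all 15 alternatives, and that of SLC39A8 under the 14 that tested it, with a difference of −0.28 after normexp against −0.82. The alternatives are not independent. Changing the detection filter, keeping outlier spots, the block and the Kruskal-Wallis test all left the difference of a tested member as it was. Over all probes 2675 were called, and 4927 with the Kruskal-Wallis test, whose large-sample p falls below 0.05 whenever 3 tumors against 3 do not overlap. Of member probes 5 were called, 3 with median scaling, 11 with Kruskal-Wallis and 3 to 8 with 1 tumor left out. With the replicate number as a block 4 member probes were called, ATP7A being lost, and no other member call changed. Of all calls 58.8% were lower in DFX tumors, 42.6% with 75th percentile and 71.8% with median scaling. Under median scaling the median difference of all tested probes was −0.10.

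The SLC39A median (−0.011) was −0.11 with median scaling, −0.076 with the mean of a gene's probes, and −0.022 to 0.040 with 1 tumor left out. The SLC30A median (−0.074) was 0.013 with 75th percentile scaling and −0.11 to 0.026 with 1 tumor left out, and the copper median (0.18) was 0.076 with median scaling, 0.063 with the mean of a gene's probes and −0.027 to 0.29 with 1 tumor left out. Below 0 with median scaling were MT1B (−0.039), MT1E (−0.030 and −0.014), MT1L (−0.057), MT1M (−0.014), MT2A (−0.0082), MTF1 (−0.087), SLC30A1 (−0.068) and SLC31A2 (−0.0011). With 1 tumor left out the sign turned, none of these passing, for ATOX1 (−0.14 to 0.035), ATP7B (−0.094 to 1.35), MT1A (−0.10 to 0.054), the brighter MT1E probe (−0.043 to 0.18), the brighter MT1H probe (−0.18 to 0.027), MT1L (−0.028 to 0.20), the brighter MT1X probe (−0.064 to 0.064), MTF1 (−0.036 to 0.050), SLC30A1 (−0.025 to 0.14) and SLC31A2 (−0.088 to 0.22). The cause was not tested. With 3 tumors a group no member passed adjustment, and the dim SLC39A8 and SLC30A probes are limited by their signal over background.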

Other observations

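Metallothionein genes are also known to answer to glucocorticoids, so 9 glucocorticoid response genes were read in the same tumors. All 9 were tested and well above background on every array, 3 with a difference above 0 and 6 below. None passed an unadjusted p under 0.05 in limma, and the median difference was −0.071. FKBP5, which encodes a chaperone of the glucocorticoid receptor, read 5.29, 5.55 and 6.35 in control tumors and 6.11, 5.90 and 5.78 in DFX tumors. TSC22D3, known as a glucocorticoid-induced leucine zipper, read 13.13, 13.15 and 12.81 against 12.67, 12.89 and 13.07. The groups overlapped for both genes, which were named after their values were seen.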
